A study of Mus musculus with 56 samples.

Results

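Day-fed and night-fed mice were compared at ZT0, the moment of lights-on, in the anterior hypothalamus, the forward part of the hypothalamus that holds the suprachiasmatic clock and the neuroendocrine paraventricular cells. The comparison took 8 of the 56 mice in the series: 4 under day time-restricted feeding (DRF) and 4 under night time-restricted feeding (NRF), chosen by the regimen and collection time in their labels. All were female C57BL/6J mice, 9 weeks old, that had been kept on a 12 h light and 12 h dark cycle and on their regimen for 7 days. DRF mice had food from ZT0 to ZT12 and NRF mice from ZT12 to ZT0, so at ZT0 the DRF mice were at the end of 12 h without food and the NRF mice at the end of their meal. The comparison asks how far gene expression in this tissue follows the meal when light and clock time are held the same. Regimen and the hours since the last meal differ together at ZT0 and cannot be told apart from these 8 mice. Mice that were also collected at lights-on a day later (ZT24) were other animals and were kept apart.

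Poly-A RNA was sequenced, and levels are given in CPM, the read count scaled to library size, with the reads recovered from the deposited values and library sizes, normalized by the authors, of 3.11e+07 to 3.21e+07 reads at ZT0. Differences are DRF minus NRF in mean log2(CPM + 1) with the standard error from limma, 4 mice in each group, and a gene is called where the p adjusted by the Benjamini-Hochberg method over all 16095 genes tested is under 0.05. All 8 listed markers of the region, among them Avp, Oxt, Vip and Six6, passed the filter on low values, and their summed level was 593 to 845 CPM in DRF and 581 to 713 CPM in NRF. Libraries of one group correlated at 0.9947 to 0.9982. On the first principal component, which held 34.8% of the variance, DRF mouse 2 lay at 0.849, next to the NRF mice (4.401 to 11.8) and away from the other DRF mice (-14.9 to -7.00). Since tissue was sequenced whole, fewer cells of a type and less RNA per cell cannot be told apart in any result below.

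Several systems that respond to feeding are active in this tissue. Corticosterone rises in rodents ahead of a scheduled meal and acts through the glucocorticoid receptor on genes such as Fkbp5, Sgk1 and Zbtb16. Heat-shock chaperones are made in greater amount when cells are warm or hold unfolded protein, whereas Cirbp and Rbm3 are made in greater amount under mild cooling. The core clock runs as a loop in which CLOCK and ARNTL (BMAL1) bind E-boxes and drive their own repressors, the Per, Cry and Nr1d genes, while PAR bZIP factors such as DBP bind D-boxes.

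At ZT0, 803 genes were called, 4.99% of those tested: 418 were higher in DRF (2.6% of those tested) and 385 lower (2.39%). The differences were small, with a median of 0.26 among the genes called higher and -0.26 among those called lower, and 51 of the 803 exceeded 0.5 in size (31 higher, 20 lower). The DRF and NRF mice did not overlap in 787 of the called genes and in 2327 of all genes tested (14.5%). Of the 803, 52.05% were higher in DRF; on the deposited values, which are divided by gene length, 156 higher and 80 lower were called, so that 66.1% were higher. How many genes were called depended on which mice entered. Leaving out NRF mouse 1 left 100, and leaving out DRF mouse 2 gave 1100, while 89 genes (50 higher, 39 lower) were called whichever mouse was left out. Calls higher and lower were 207 and 188, 537 and 563, 140 and 112, and 106 and 93 without DRF mice 1 to 4. They were 61 and 39, 143 and 127, 80 and 73, and 262 and 223 without NRF mice 1 to 4. Counts in the lists below with 1 mouse left out are to be read against these totals.

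Of the genes called higher in DRF with no overlap between the groups, Hif3a had the largest difference. It encodes a subunit of the hypoxia-inducible factor family. Its level was 14.5, 10.5, 11.6 and 13.4 CPM in the 4 DRF mice and 3.67, 2.28, 2.11 and 3.68 CPM in the 4 NRF mice, a 4.27-fold difference of the means (1.80 ± 0.15, adjusted p = 0.00106). Every DRF mouse stood well above every NRF mouse. Next came Plin4, a coat protein of lipid droplets, at 7.94, 8.86, 8.04 and 8.83 CPM in DRF and 3.73, 2.31, 2.94 and 3.21 CPM in NRF (1.23 ± 0.10, adjusted p = 0.00106). Zbtb16, a zinc finger transcription factor induced by glucocorticoids, had 25.2, 19.6, 15.8 and 22.8 CPM in DRF against 10.5, 8.60, 11.1 and 10.6 CPM in NRF (0.95 ± 0.13, adjusted p = 0.00806). That the groups did not overlap was a condition for naming these genes. DRF mouse 2, which lay nearest to NRF over the whole transcriptome, was as high as the other DRF mice in Plin4.

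**Figure D1:**
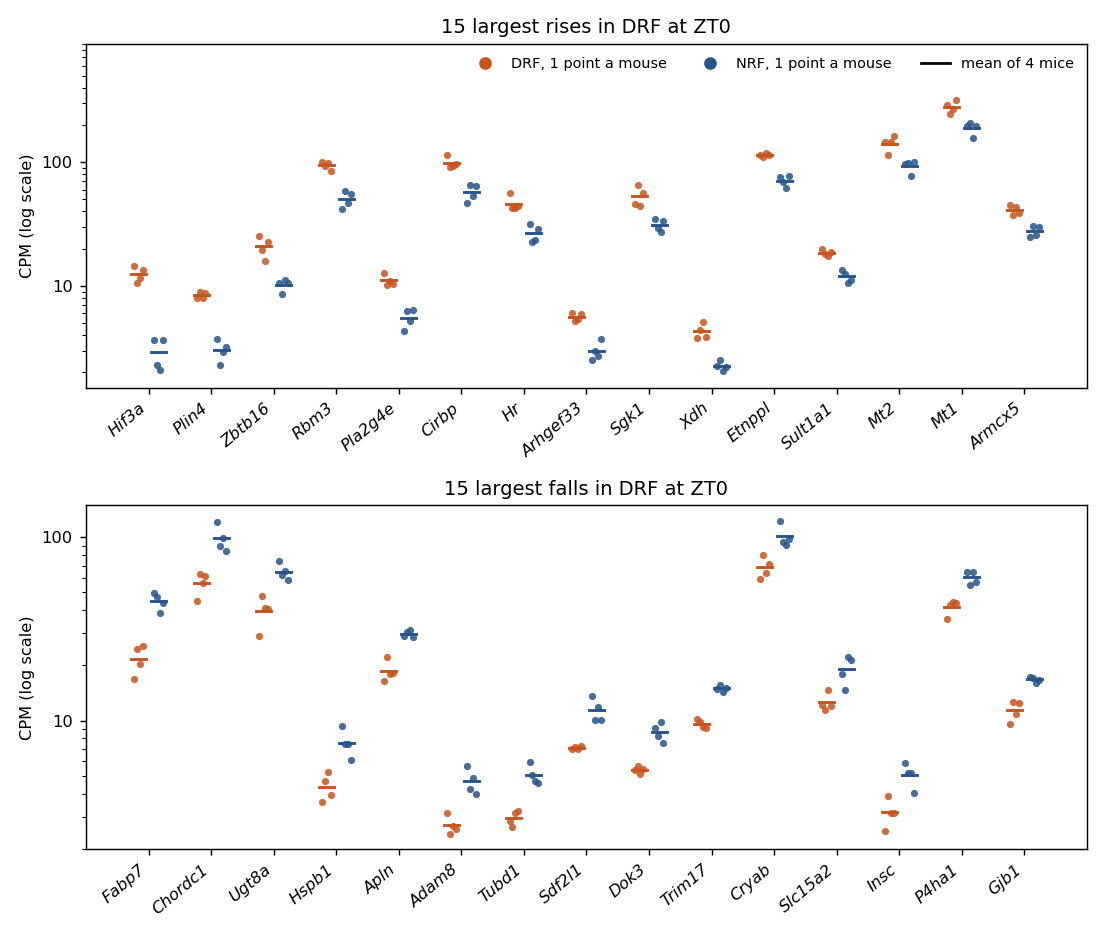
Level in CPM (log axis) of the 15 genes with the largest rise and the 15 with the largest fall in DRF at ZT0, among called genes with a mean log2(CPM + 1) of at least 2 and no overlap. Each point is 1 mouse and each bar the mean of 4; orange DRF and blue NRF points do not overlap for any gene shown, as that was a condition for the choice.

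Other large rises were in enzymes, a kinase and regulators of transcription. Etnppl, an astrocyte enzyme that breaks down phosphoethanolamine, was at 115, 110.4, 118 and 114 CPM in DRF and 75.8, 68.5, 61.9 and 77.0 CPM in NRF (0.69 ± 0.06, adjusted p = 0.0012). The DRF mice lay close together. That the groups did not overlap was a condition for naming the largest rises. Sgk1, the serum- and glucocorticoid-regulated kinase, had 45.5, 65.4, 43.9 and 56.7 CPM against 34.6, 29.4, 27.1 and 33.4 CPM (0.73 ± 0.12, adjusted p = 0.0141), with the wider spread in DRF. Hr, a nuclear receptor corepressor induced by thyroid hormone, was 1.74-fold higher in DRF (0.78 ± 0.12, adjusted p = 0.0106). Pla2g4e, a cytosolic phospholipase, and Xdh, the xanthine dehydrogenase of purine breakdown, were 1.995-fold and 1.897-fold higher. The largest rises also held Arhgef33 (0.75 ± 0.10), Sult1a1 (0.60 ± 0.08) and Armcx5 (0.55 ± 0.08). Reads of Sult1a1 and Armcx5 could not be recovered as whole numbers, so their differences are less certain. Ccl27b, a chemokine gene outside the rule for naming and picked after its values were seen, had a large difference (1.62 ± 0.38, adjusted p = 0.0403) but overlapped, since NRF mouse 3 had 3.61 CPM and DRF mouse 2 had 2.69 CPM.

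Among the named genes lower in DRF, Fabp7, the brain fatty acid-binding protein of astrocytes and radial glia, fell the most. It was at 16.9, 24.6, 20.3 and 25.4 CPM in DRF and 49.6, 47.1, 38.7 and 44.0 CPM in NRF, 2.06-fold higher in NRF (-1.02 ± 0.12, adjusted p = 0.00417). The highest DRF mouse remained well under the lowest NRF mouse. Apln, the peptide apelin, was at 16.4, 22.2, 17.9 and 18.2 CPM in DRF and 28.8, 30.6, 31.0 and 28.6 CPM in NRF (-0.65 ± 0.08, adjusted p = 0.00657), and P4ha1, a collagen prolyl hydroxylase, was at 35.8, 42.8, 44.0 and 43.9 CPM and 64.3, 55.1, 64.9 and 57.0 CPM (-0.53 ± 0.07, adjusted p = 0.00962). Ugt8a, which makes the galactolipids of myelin, was lower as well, at 29.0, 47.7, 41.2 and 40.4 CPM in DRF and 73.7, 61.9, 65.7 and 58.3 CPM in NRF (-0.72 ± 0.12, adjusted p = 0.0184). Here DRF mouse 1 was the lowest of all. Gjb1, a connexin of oligodendrocytes (-0.52 ± 0.08), Cryab, a small heat-shock protein (-0.56 ± 0.10), and Slc15a2, a peptide transporter of astrocytes (-0.55 ± 0.12), fell too. Trim17 (-0.59 ± 0.06, less certain as its reads could not be recovered as whole numbers), Dok3 (-0.59 ± 0.08), Tubd1 (-0.62 ± 0.09), Adam8 (-0.62 ± 0.10) and Insc (-0.54 ± 0.12) completed the largest falls together with the chaperones described next.

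Cytosolic heat-shock genes were lower in DRF as a list. This list and those below were chosen with earlier results of these data known. Their counts set beside the share of all genes are therefore a description and not independent support. All 16 were lower in DRF, 8 of them were called against 2.39% of all genes, and the median difference was -0.29 against -0.0014 over all genes tested. The called members were Stip1, Hsph1, Chordc1, Ahsa1, Hspe1, Hspb1, Hspa8 and Dnaja1. The summed level of all 16 was 6834, 7263, 6997 and 7462 CPM in the DRF mice and 9395, 8176, 8462 and 8273 CPM in the NRF mice, so that the groups did not overlap. Chordc1, a co-chaperone of HSP90, was at 44.7, 62.8, 55.9 and 61.5 CPM in DRF and 121, 89.9, 99.4 and 84.4 CPM in NRF (-0.80 ± 0.12, adjusted p = 0.0112). Hsph1, an exchange factor for HSP70, had 284, 317, 298 and 329 CPM in DRF and 508, 408, 428 and 407 CPM in NRF (-0.51 ± 0.07, adjusted p = 0.00962). NRF mouse 1 was the highest of all mice in both genes. Stip1, the adaptor that joins HSP70 to HSP90, had 291, 291, 270.0 and 304 CPM and 457, 364, 402 and 386 CPM (-0.47 ± 0.06, adjusted p = 0.00811). The activator of HSP90, Ahsa1 (-0.38 ± 0.06, adjusted p = 0.0112), and the small chaperone Hspb1 (-0.68 ± 0.12, adjusted p = 0.0204) differed in the same direction. Between 5 (without DRF mouse 4, NRF mouse 1 or NRF mouse 3) and 11 (without DRF mouse 2) members were called when 1 mouse was left out.

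Promoter windows of 300 bases, from 250 before to 50 after the annotated start, are shown for the chaperones with the largest falls whose window held a heat shock element, as the sequence that the heat-shock factor is known to bind. The windows come from RefSeq on GRCm38.p6, read 5′ to 3′ on the strand of the gene. Capitals mark matches to GAANNTTC, searched on both strands, and in Hsph1 also 1 match to the E-box CACGTG, which the heat shock element does not overlap.
Chordc1 (chr9:18292017-18292316, plus strand): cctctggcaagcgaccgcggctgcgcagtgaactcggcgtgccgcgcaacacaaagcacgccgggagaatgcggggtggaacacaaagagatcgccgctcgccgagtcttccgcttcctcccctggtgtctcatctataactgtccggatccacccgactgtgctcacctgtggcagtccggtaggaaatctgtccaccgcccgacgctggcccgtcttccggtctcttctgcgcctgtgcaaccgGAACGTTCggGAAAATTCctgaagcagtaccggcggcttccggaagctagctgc
Hspb1 (chr5:135887669-135887968, plus strand): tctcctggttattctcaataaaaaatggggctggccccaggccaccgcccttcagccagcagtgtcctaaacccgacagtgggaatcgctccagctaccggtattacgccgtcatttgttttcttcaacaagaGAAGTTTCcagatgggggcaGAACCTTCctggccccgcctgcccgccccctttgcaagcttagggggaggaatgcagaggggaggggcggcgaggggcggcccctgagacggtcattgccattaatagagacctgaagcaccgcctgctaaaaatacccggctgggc
Hsph1 (chr5:149636287-149636586, minus strand): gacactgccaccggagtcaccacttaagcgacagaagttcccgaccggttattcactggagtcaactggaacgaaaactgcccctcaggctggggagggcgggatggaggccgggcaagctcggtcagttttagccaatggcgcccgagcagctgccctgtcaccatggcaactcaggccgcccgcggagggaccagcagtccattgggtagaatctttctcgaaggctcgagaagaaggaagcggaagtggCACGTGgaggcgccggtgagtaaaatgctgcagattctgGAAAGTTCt
Of the 16 heat-shock genes 13 had a window, and in 9 of the 13 at least 1 window held GAANNTTC, against 9.04% of the 27025 genes with a window. Chordc1 and Hspb1 each held 2 matches. Stip1 and Ahsa1, which were called as well, held none in these windows. A match is a description of the letters and not evidence of binding.

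Endoplasmic reticulum chaperones were lower in DRF too. Of 17 genes, 16 were lower and 10 were called, against 2.39% of all genes (Sdf2l1, Manf, Creld2, Pdia4, Hsp90b1, Dnajb11, Xbp1, Calr, Pdia6 and Hspa5), none was called higher, and the median difference was -0.22. Sdf2l1, a partner of the chaperone BiP, was at 7.04, 7.16, 7.04 and 7.29 CPM in DRF and 13.6, 10.1, 11.8 and 10.1 CPM in NRF (-0.60 ± 0.09, adjusted p = 0.0113). Manf, a secreted factor induced by unfolded protein, was at 55.3, 49.4, 46.6 and 49.98 CPM and 66.7, 59.0, 63.7 and 62.6 CPM (-0.32 ± 0.06, adjusted p = 0.0176). The DRF mice were tightly grouped in Sdf2l1 and the NRF mice were spread, with NRF mouse 1 highest. The count fell to 1 without NRF mouse 1 or without NRF mouse 3, 4 without DRF mouse 3, 5 without DRF mouse 4 and 6 without DRF mouse 1 or NRF mouse 2. Over all genes 39 were called lower without NRF mouse 1 and 73 without NRF mouse 3, against 385 with all mice. Sdf2l1 was called whichever mouse was left out, while the calls of Hspa5 and Pdia6 were lost each time.

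The 2 cold-inducible RNA-binding proteins moved the opposite way. Rbm3, the first of the pair, was at 101, 92.8, 98.8 and 84.0 CPM in DRF and 41.6, 58.1, 46.7 and 55.2 CPM in NRF, 1.86-fold higher in DRF (0.89 ± 0.10, adjusted p = 0.00312). Cirbp was at 114, 90.8, 92.8 and 97.1 CPM and 46.4, 65.0, 53.1 and 64.6 CPM (0.78 ± 0.11, adjusted p = 0.00806). In both genes the lowest DRF mouse was far above the highest NRF mouse, NRF mouse 1 was the lowest of all, and both calls held with any 1 mouse left out. NRF mouse 1 was thus lowest in the 2 cold-inducible genes and highest in Chordc1, Hsph1, Stip1, Sdf2l1 and Hspb1. The genes for this remark on 1 mouse were picked after their values were seen. Body temperature is not among the values used here, and its part was not tested.

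**Figure D2:**
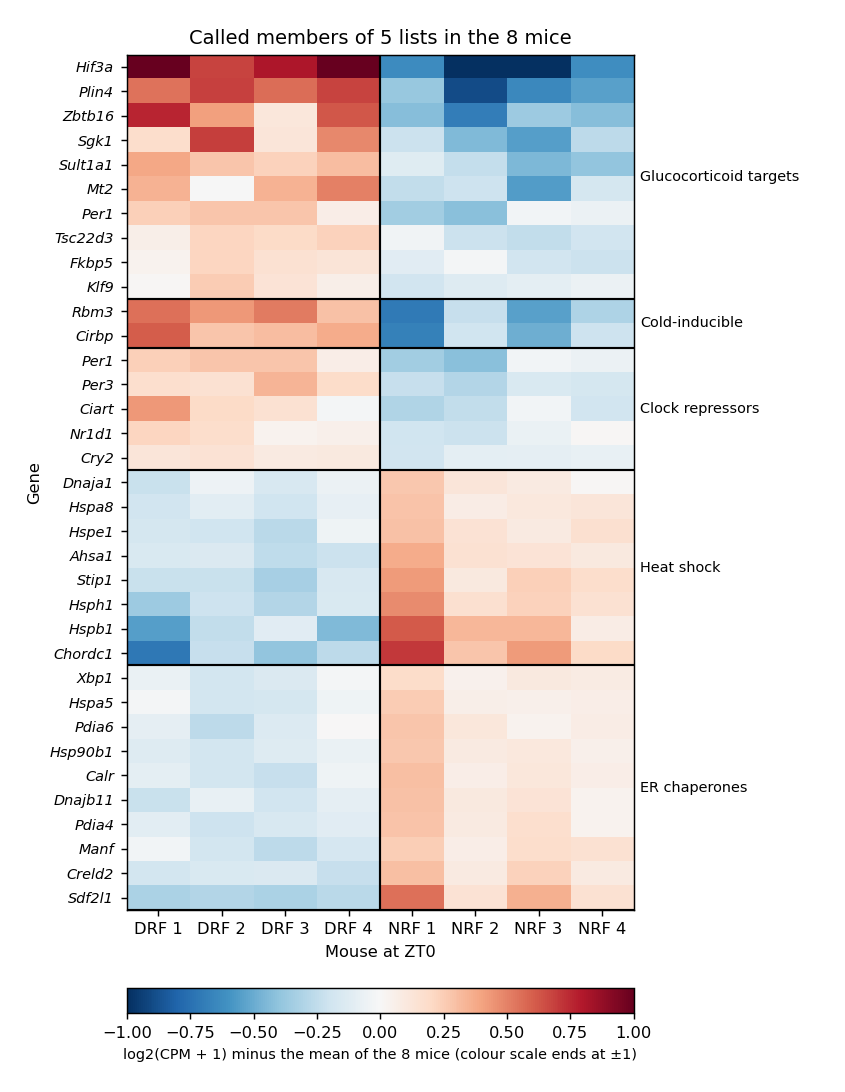
Log2(CPM + 1) of the called members of 5 gene lists in each mouse at ZT0, minus the mean of the 8 mice (red above, blue below, colour scale ending at ±1). Glucocorticoid targets, cold-inducible genes and clock repressors are red in the 4 DRF columns, heat-shock and endoplasmic reticulum (ER) chaperones in the 4 NRF columns; Per1 stands in 2 lists.

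The list of glucocorticoid targets held Hif3a and Plin4, the named genes with the largest rises. Of 19 listed genes 18 were tested, 17 were higher in DRF and 10 were called (Hif3a, Plin4, Zbtb16, Sgk1, Sult1a1, Mt2, Per1, Tsc22d3, Fkbp5 and Klf9), against 2.6% of all genes, with a median difference of 0.25. None was called lower. The list also holds the receptors Nr3c1 and Nr3c2, and it was chosen with earlier results of these data known. The count is therefore a description. The summed level of the list was 737, 747, 759 and 769 CPM in the DRF mice and 593, 578, 576 and 612 CPM in the NRF mice. No mouse overlapped, DRF mouse 2 included. Tsc22d3 (GILZ), which restrains inflammatory transcription factors, was higher by 0.35 ± 0.05, adjusted p = 0.0122, the receptor co-chaperone Fkbp5 by 0.27 ± 0.06, adjusted p = 0.0338 and the transcription factor Klf9 by 0.23 ± 0.05, adjusted p = 0.0372. These 3 were named for the list and not by the rule. When 1 mouse was left out, 6 (without NRF mouse 1) to 10 (without DRF mouse 2) members were called.

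Metallothioneins, which bind zinc and are induced by both zinc and glucocorticoids, rose in part. Mt1 was at 289.5, 246, 268 and 318 CPM in DRF and 197, 206, 158 and 197 CPM in NRF (0.57 ± 0.09, adjusted p = 0.0136), and Mt2, which stands in the glucocorticoid list as well, at 144, 113, 144 and 161 CPM and 95.6, 97.9, 76.5 and 100.1 CPM (0.60 ± 0.11, adjusted p = 0.019). These were the 2 calls among the 8 genes of metallothionein and zinc handling, against 2.6% of all genes called higher. The remaining 6 were not called, and the call of Mt2 was lost without NRF mouse 1. Mt3, the neuronal form, was at 112, 105, 101 and 126 CPM in DRF and 143, 124, 123 and 115 CPM in NRF (-0.19 ± 0.08, adjusted p = 0.167).

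Clock repressors were higher in DRF, while no activator was called. All 10 repressors had positive differences and 5 were called, against 2.6% of all genes: Per3, Per1, Ciart, Nr1d1 and Cry2. Per3 was at 63.8, 63.0, 71.9 and 64.3 CPM in DRF and 48.2, 46.0, 50.7 and 50.04 CPM in NRF (0.42 ± 0.05, adjusted p = 0.0054). Per1, which glucocorticoids also induce, was at 71.4, 73.2, 73.4 and 63.0 CPM and 47.3, 44.8, 59.0 and 57.7 CPM (0.43 ± 0.09, adjusted p = 0.0273), with NRF mice 3 and 4 close to DRF mouse 4. Cry2 was at 105, 107, 102 and 103 CPM and 84.2, 89.5, 90.1 and 91.1 CPM (0.23 ± 0.04, adjusted p = 0.0113), a small difference with a small spread. The difference was 0.24 ± 0.06, adjusted p = 0.0437 for Nr1d1 (REV-ERBα) and 0.38 ± 0.10, adjusted p = 0.0489 for Ciart (CHRONO). Nr1d1 lies antisense to Thra at its 3′ end and its reads could not be recovered as whole numbers, so its level is less certain. The count was 2 without DRF mouse 1, DRF mouse 3, NRF mouse 1 or NRF mouse 2, 3 without DRF mouse 2, DRF mouse 4 or NRF mouse 3, and 4 without NRF mouse 4. Per3 and Cry2 were called whichever mouse was left out. The call of Ciart was lost whichever mouse was left out, and that of Nr1d1 held only without NRF mouse 4.

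Per2 (0.11 ± 0.07, adjusted p = 0.392), Cry1 (0.07 ± 0.07, adjusted p = 0.59), Nr1d2 (0.08 ± 0.04, adjusted p = 0.3), Bhlhe40 (0.06 ± 0.05, adjusted p = 0.546) and Bhlhe41 (0.10 ± 0.04, adjusted p = 0.165) were not called. Of the 6 activators, Arntl had 35.9, 30.4, 35.1 and 32.5 CPM in DRF and 39.1, 36.7, 38.5 and 38.7 CPM in NRF (-0.19 ± 0.06, adjusted p = 0.072), without overlap but short of the threshold. Among the others were Clock (-0.09 ± 0.05), Npas2 (-0.02 ± 0.11), Rora (0.03 ± 0.08) and Rorb (0.03 ± 0.06). Among the PAR bZIP output factors and their antagonist, Dbp was called, at 59.0, 55.1, 50.8 and 47.6 CPM in DRF and 35.8, 44.0, 42.7 and 41.1 CPM in NRF (0.37 ± 0.08, adjusted p = 0.0278), a call lost without DRF mouse 1, NRF mouse 1 or NRF mouse 3. Tef (0.08 ± 0.03), Hlf (-0.02 ± 0.08) and Nfil3 (-0.22 ± 0.08) were not. The reads of Dbp, like those of Nr1d1, could not be recovered as whole numbers, so its level is less certain.

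Windows are shown for the called repressors that held D-boxes or several E-boxes, the elements through which the clock loop is known to act. Capitals mark TTATGTAA (D-box) in Per3 and CACGTG (E-box) in Ciart, searched on both strands.
Per3 (chr4:151044616-151044915, minus strand): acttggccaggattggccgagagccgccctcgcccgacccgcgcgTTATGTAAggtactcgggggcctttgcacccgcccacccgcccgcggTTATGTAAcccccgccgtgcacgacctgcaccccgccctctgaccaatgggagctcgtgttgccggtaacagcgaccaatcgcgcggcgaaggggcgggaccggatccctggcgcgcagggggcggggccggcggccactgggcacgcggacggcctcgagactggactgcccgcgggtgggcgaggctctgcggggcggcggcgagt
Ciart (chr3:95882179-95882478, minus strand): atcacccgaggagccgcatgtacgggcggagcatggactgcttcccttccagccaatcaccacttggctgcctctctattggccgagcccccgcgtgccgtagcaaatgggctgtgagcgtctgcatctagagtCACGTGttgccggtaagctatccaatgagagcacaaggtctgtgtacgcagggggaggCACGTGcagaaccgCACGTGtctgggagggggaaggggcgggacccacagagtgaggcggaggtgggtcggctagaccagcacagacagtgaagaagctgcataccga
The Per3 window held 2 D-boxes, and 1.11% of all genes with a window held at least 1. That of Ciart held 3 E-boxes. Of the 8 repressors with a window 4 held an E-box, against 8.09% of all genes. These were Ciart and Per1, which were called, and Cry1 and Bhlhe41, which were not. Per3, Cry2 and Nr1d1, which were called as well, held no E-box in these windows.

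Single genes of fuel use were called, to be read against the 2.6% of all genes called higher and the 2.39% called lower. Of 23 genes of ketone use and fatty acid oxidation 2 were called, both higher in DRF, among them Cpt1a, the mitochondrial entry step for fatty acids (0.19 ± 0.04, adjusted p = 0.0386). The median of that list was 0.0067, and 3 members were called without DRF mouse 2, 1 without NRF mouse 1 and 0 without any of the others. Of 19 insulin and FOXO fasting-response genes only Klf15, a fasting-induced transcription factor, was called (0.24 ± 0.06, adjusted p = 0.0385), and the call held without NRF mouse 4 and was lost without any other mouse. Txnip, which restrains glucose uptake, was at 31.6, 19.4, 30.9 and 27.2 CPM in DRF and 18.7, 18.1, 19.4 and 21.3 CPM in NRF (0.45 ± 0.13, adjusted p = 0.067), and DRF mouse 2 lay within the NRF range. Of 33 genes of cholesterol and fatty acid synthesis, 3 were called higher, among them Insig1 (0.31 ± 0.06, adjusted p = 0.0197) and Lss (0.22 ± 0.04, adjusted p = 0.0275), and the elongase Elovl6 (-0.24 ± 0.06, adjusted p = 0.0403) was called lower, a call kept only without DRF mouse 2. None of the 3 rises was called without NRF mouse 3, and the call of Lss was also lost without DRF mouse 1, DRF mouse 3, NRF mouse 1 or NRF mouse 2.

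Amino acid genes gave 3 calls. Slc7a5, the LAT1 carrier of large neutral amino acids, was at 85.8, 79.7, 72.2 and 76.0 CPM in DRF and 57.9, 58.2, 59.7 and 63.3 CPM in NRF (0.38 ± 0.05, adjusted p = 0.00901), called with any mouse left out, and it was the only called member of the 18 genes of serine synthesis and ATF4 targets. In amino acid degradation, 2 of 24 genes were called, against 2.6% of all genes: Prodh, the proline dehydrogenase (0.32 ± 0.06, adjusted p = 0.0176), and Aldh6a1 of valine breakdown (0.20 ± 0.04, adjusted p = 0.0204), both higher in DRF. Both calls were lost without NRF mouse 3, and that of Aldh6a1 without DRF mouse 4.

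Feeding peptides differed in individual DRF mice. Of 18 peptides and receptors, Insr, the insulin receptor, was at 70.9, 71.8, 73.9 and 71.5 CPM in DRF and 62.3, 63.5, 60.2 and 64.2 CPM in NRF (0.20 ± 0.03, adjusted p = 0.0182), and Nucb2, the precursor of nesfatin, was higher by 0.30 ± 0.07, adjusted p = 0.0338. Agrp, the hunger peptide of the arcuate nucleus, was at 10.6, 2.95, 8.16 and 12.3 CPM in DRF and 3.41, 3.499, 4.12 and 3.80 CPM in NRF and was not called (0.88 ± 0.30, adjusted p = 0.109). In DRF mice 1, 3 and 4 it lay above every NRF mouse, and in DRF mouse 2 below every NRF mouse. Npy, which the same neurons make and which was picked after its values were seen, was at 68.5, 24.6, 54.1 and 59.8 CPM and 30.2, 30.0, 38.9 and 30.1 CPM (0.58 ± 0.25, adjusted p = 0.192), again with DRF mouse 2 below the NRF mice. The arcuate nucleus lies behind the dissected region, and the part of its share in each dissection was not tested. With all mice 2 genes of this list were called, both higher in DRF, against 2.6% of all genes. The count was 5 without DRF mouse 2, 0 without NRF mouse 1 or NRF mouse 3, and 1 without any of the others.

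Single genes were called in several of the lists below, to be read against 2.39% of all genes called lower and 2.6% called higher. Of 16 neuroendocrine peptides, Nts, neurotensin, was called, at 34.8, 40.4, 31.9 and 39.6 CPM in DRF and 55.9, 50.8, 40.8 and 48.0 CPM in NRF (-0.40 ± 0.10, adjusted p = 0.0407). Crh, the releasing hormone at the head of the glucocorticoid axis, was at 6.08, 10.7, 6.44 and 6.71 CPM in DRF and 10.8, 10.2, 12.0 and 9.32 CPM in NRF (-0.47 ± 0.15, adjusted p = 0.0827). It was below every NRF mouse in DRF mice 1, 3 and 4 and within the NRF range in DRF mouse 2. The call of Nts held without DRF mouse 2 or NRF mouse 3 and was lost without any other. None of the 14 suprachiasmatic genes was called by limma, and 2 had an unadjusted p under 0.05, both positive, against 11.3% of all genes in that direction. Of 19 immediate early genes only Arc, a synaptic gene induced by activity, was called (-0.39 ± 0.10, adjusted p = 0.0446), and its call held only without DRF mouse 2. Wwc1 (KIBRA) was the only call among 21 Hippo pathway genes (-0.22 ± 0.05, adjusted p = 0.0298; lost without DRF mouse 1, DRF mouse 4, NRF mouse 1, NRF mouse 3 or NRF mouse 4) and Hr the only one among 8 genes of thyroid hormone handling. None of the 16 genes of SR proteins and CLK kinases was called by limma, and 3 had an unadjusted p under 0.05. Of these 1 was higher in DRF and 2 lower, against 11.3% and 11.8% of all genes.

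Respiratory chain genes had small negative differences in most members. Of 84 tested subunits of the respiratory chain and ATP synthase 79 were lower in DRF, 49 had an unadjusted p under 0.05 in that direction against 11.8% of all genes, and none in the other against 11.3%. The median difference was -0.14. Of the 84 only 6 were called, against 2.39% of all genes called lower: Ndufc1 (-0.30 ± 0.07, adjusted p = 0.0332), Uqcr11, Ndufa4, Cox6a1, Atp5h and Ndufb11. Ndufa4 was at 112, 113, 107 and 113 CPM in DRF and 132, 131, 121 and 119.6 CPM in NRF. None was called without DRF mouse 4, without NRF mouse 1 or without NRF mouse 2, while 1 was called without DRF mouse 3 or NRF mouse 4, 2 without NRF mouse 3 and 3 without DRF mouse 1. Deviations of genes from their mean over the 8 mice correlated with gene length at -0.128, 0.276, 0.240 and 0.137 (Spearman's rho across genes) in DRF mice 1 to 4 and at -0.237, -0.257, 0.069 and -0.0017 in NRF mice 1 to 4. With GC content the correlations were between -0.282 and 0.293 in the DRF mice and between -0.146 and 0.204 in the NRF mice. With the trends of each library in length, GC content and expression level removed, 6 members were called. Over all genes, 596 were then called lower, against 385 without that step, so the same count stands against a larger total. The 80 tested cytosolic ribosomal protein genes had a median of -0.030 and no call, with 4 at an unadjusted p under 0.05. Of these 1 was higher in DRF and 3 lower, against 11.3% and 11.8% of all genes.

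**Figure D3:**
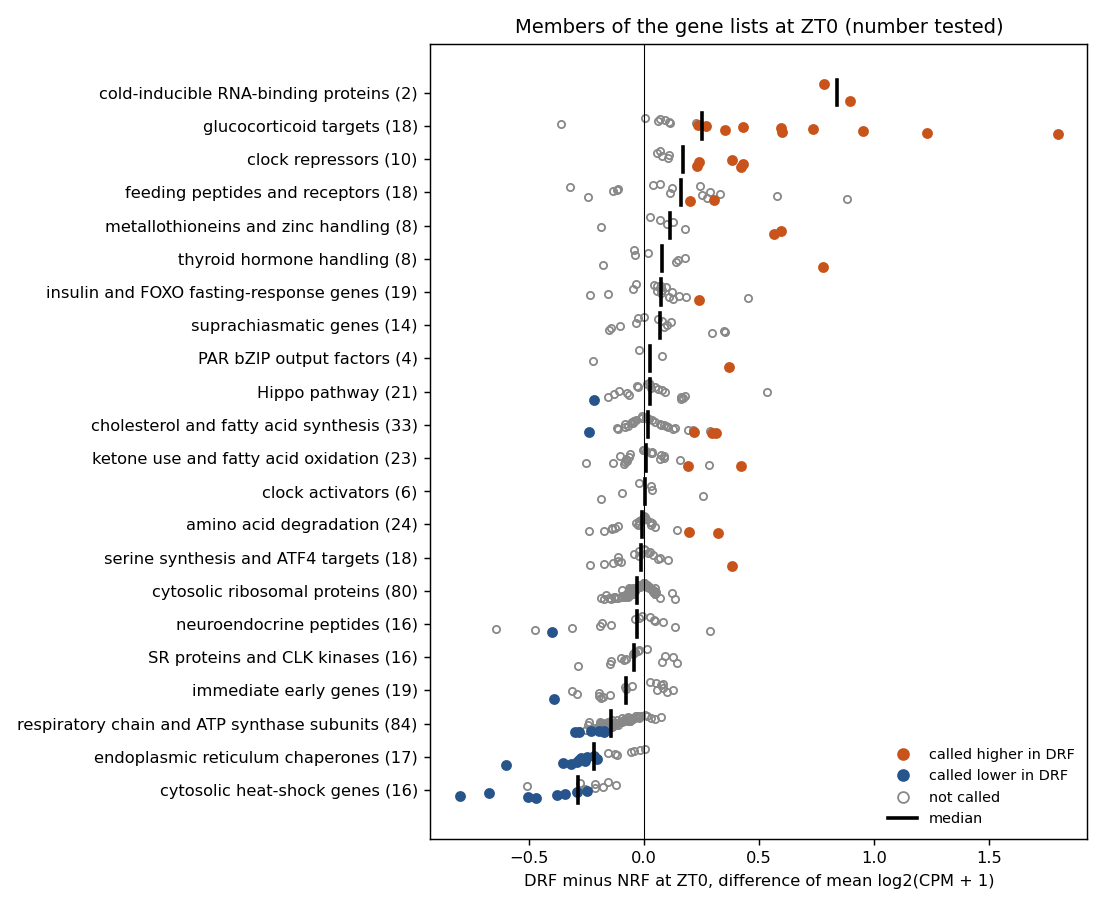
Differences (DRF minus NRF at ZT0, mean log2(CPM + 1)) of the tested members of 22 gene lists, ordered by their median (black bar), with the number tested in parentheses. Filled points were called; the medians of heat-shock genes (-0.29) and endoplasmic reticulum chaperones (-0.22) lie left of 0 and those of glucocorticoid targets (0.25), cold-inducible genes (0.84) and clock repressors (0.17) right of it.

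Markers of other cells moved with the regimen in places. The 6 endothelial markers were all lower in DRF and 3 were called (Cldn5, Flt1 and Ly6c1), against 2.39% of all genes, with a summed level of 124 to 133 CPM in DRF and 151 to 159 CPM in NRF and no marker at 0. The count was 4 without DRF mouse 2, 2 without NRF mouse 3 and 1 without any other mouse. Of 6 mural cell markers Rgs5 was called lower, which held without DRF mouse 2 or NRF mouse 4 and was lost without any other. The 5 blood genes, 4 globins and Alas2, were all higher in DRF without a call, with a summed level of 666, 338, 954 and 667 CPM in the DRF mice and 300, 313, 389 and 461 CPM in the NRF mice, and all 5 were called without DRF mouse 2. Oligodendrocyte markers summed to 4019 to 5819 CPM in DRF and 5695 to 6533 CPM in NRF with none of 8 called, and DRF mouse 1 was lowest there and in Ugt8a and Gjb1. All 8 were lower in DRF, 2 of them with an unadjusted limma p under 0.05, against 11.8% of all genes in that direction. Of 7 microglia markers 6 were lower, and 4 had such a p in that direction. Of 7 neuron markers 6 were lower, and of 7 astrocyte markers 6 were higher. The 3 cortical markers summed to 22.2 to 41.1 CPM in DRF and 33.8 to 43.7 CPM in NRF, with DRF mouse 2 the highest in DRF. In astrocytes Aldh1l1 was called higher, a call lost whichever mouse was left out. In oligodendrocyte precursors Pdgfra was called higher, except without NRF mouse 1, and Gpr17 lower, a call kept only without DRF mouse 2. With all mice none of the markers of neurons, microglia, ependymal cells, tanycytes, choroid plexus, pituitary (2 of 5 tested, 2 listed at 0), meninges, thalamus or striatum was called. Meningeal markers summed to 211 CPM in DRF mouse 3 against 38.4 to 47.0 CPM in the other DRF mice and 42.9 to 67.9 CPM in NRF, and striatal markers to 224 CPM in NRF mouse 2 against 55.8 to 85.6 CPM in the other NRF mice and 64.4 to 125 CPM in DRF. The part of these cell types in the differences above was not tested.

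The same regimens were sampled again at ZT24, at the same light and meal phase, in 8 other mice. At ZT24, 14 genes were called (0.087%), 7 in each direction, and 1954 had an unadjusted p under 0.05. Of the 14, 12 were called at ZT0 as well, in the same direction. Among them were Hif3a, Etnppl, Pla2g4e, Mertk and Mt2, higher in DRF, and Hsph1, P4ha1, Chordc1, Serpinh1 and Uba6, lower. Mertk, Serpinh1 and Uba6 are named here for the overlap alone. Slc5a3 and Vcam1 were called at ZT24 only, both lower in DRF. Hif3a differed by 1.39 ± 0.16 at ZT24, Chordc1 by -0.46 ± 0.04 and Mt2 by 0.83 ± 0.12, the last a larger value than at ZT0.

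Across the 803 genes called at ZT0, 689 (85.8%) had the same sign at ZT24, against 60.6% of all genes tested, and 295 (36.7%) had the same sign with an unadjusted p under 0.05, against 9.88% of all genes. These genes were chosen on their ZT0 values, and the medians were nearer to 0 a day later. The genes called higher at ZT0 had 0.088 at ZT24 and those called lower -0.094. The lists differed in this. Glucocorticoid targets had a median of 0.24 at ZT24, close to their value at ZT0, heat-shock genes -0.18, endoplasmic reticulum chaperones -0.17 and cold-inducible genes 0.35, whereas clock repressors had 0.052 and respiratory chain genes 0.017. Rbm3 differed by 0.30 ± 0.08 at ZT24 and Fabp7 by -0.63 ± 0.17.

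The difference at ZT0 was then tested against that at ZT24, and 1 gene was called (0.00621% of those tested), while 1680 had an unadjusted p under 0.05. It was Per3, with a difference between the 2 days of 0.44 ± 0.06, adjusted p = 0.0242. At ZT24 Per3 was at 55.9, 54.8, 53.6 and 53.3 CPM in DRF and 54.6, 56.8, 54.4 and 53.9 CPM in NRF, so the groups overlapped there. Both groups moved: NRF mice were higher at ZT24 than at ZT0 and DRF mice lower. The call was lost without DRF mouse 4, NRF mouse 1, NRF mouse 2 or NRF mouse 4 and with quantile normalization, library trends removed or the deposited values. For every other gene a difference between the days was not shown, which does not mean that the 2 days gave the same value.

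**Figure D4:**
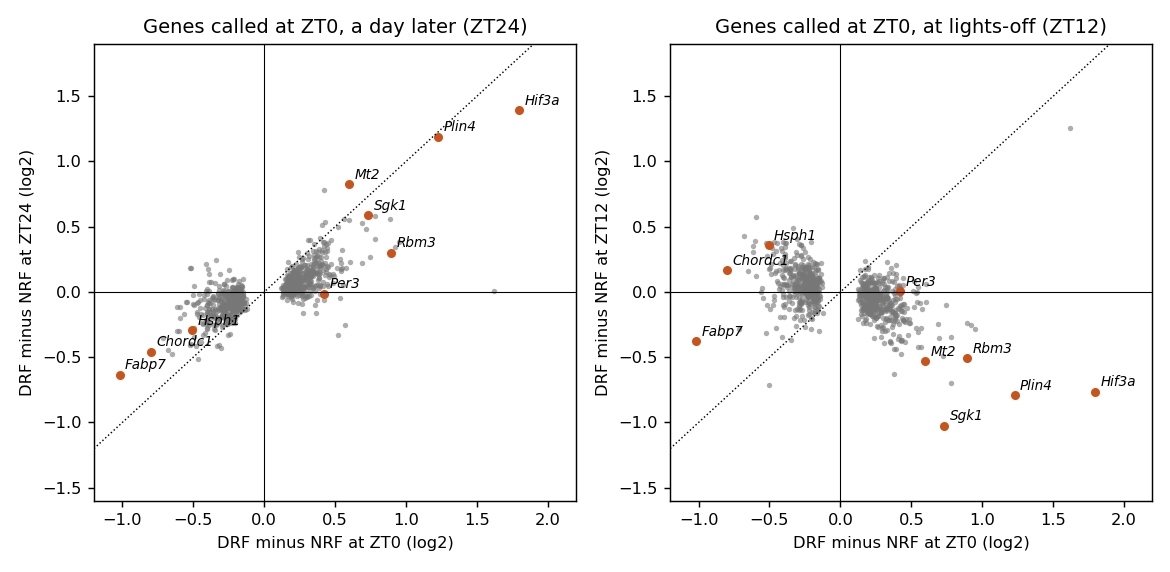
DRF minus NRF of the genes called at ZT0 (x axis, mean log2(CPM + 1)) against the same difference in other mice at ZT24 (left) and ZT12 (right), with 9 genes named and the dotted line marking equal values. At ZT24 85.8% of the points have the sign they had at ZT0 and most lie nearer to 0, with Mt2 above the dotted line and Per3 next to 0; at ZT12 71.5% have the opposite sign.

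At ZT12, lights-off, the meal phases have changed places: DRF mice end their meal and NRF mice end 12 h without food. The regimens were compared there in 8 further mice, and no gene was called by limma, with 1919 at an unadjusted p under 0.05. Of the 803 genes called at ZT0, 574 (71.5%) had the opposite sign at ZT12, against 52.1% of all genes. The glucocorticoid targets had a median of -0.23 at ZT12, heat-shock genes 0.17, endoplasmic reticulum chaperones 0.14 and cold-inducible genes -0.43, each opposite in sign to ZT0. Respiratory chain genes kept a negative median, -0.045.

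A test of the ZT0 difference against the ZT12 difference called 561 genes (3.49%), 288 positive and 273 negative. The 5 with the smallest p were Hif3a, Arrdc2, Etnppl, Sdc4 and Eva1a. For Hif3a the difference between the 2 times was 2.56 ± 0.19, adjusted p = 2.94e-06. Its level was 12.5 ± 1.79 CPM (mean ± SD, n = 4) in DRF and 2.93 ± 0.856 in NRF at ZT0, and 12.7 ± 1.02 in DRF and 22.2 ± 2.22 in NRF at ZT12. DRF mice thus had nearly the same level at both times and the NRF mice went from the lowest of the 14 group means to the highest. Arrdc2, an arrestin-domain protein, gave 1.001 ± 0.11, adjusted p = 0.000481, and its level in NRF was 8.32 ± 0.813 CPM at ZT0 and 15.1 ± 1.06 at ZT12, against 11.1 ± 0.973 and 9.42 ± 0.702 in DRF. Etnppl gave 0.94 ± 0.11, adjusted p = 0.000481, Sdc4, a heparan sulfate proteoglycan, 0.63 ± 0.07, adjusted p = 0.000481, and Eva1a, a gene of autophagy and cell death, 0.80 ± 0.09, adjusted p = 0.000481.

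Named chaperones and cold-inducible genes passed that test as well. The genes of this paragraph had been followed from ZT0, and the ZT0 difference is itself a part of the test. Passing it therefore gives no support independent of the ZT0 call. For Rbm3 the change was 1.40 ± 0.17, adjusted p = 0.000481, for Cirbp 1.13 ± 0.15, adjusted p = 0.000629, for Stip1 -0.76 ± 0.09, adjusted p = 0.000481 and for Hsph1 -0.86 ± 0.11, adjusted p = 0.000481. Rbm3 in NRF was at 50.4 ± 7.61 CPM at ZT0 and 94.3 ± 17.9 at ZT12, while in DRF it was at 94.1 ± 7.52 and 65.5 ± 6.52. Hsph1 in NRF had 438 ± 47.8 CPM at ZT0 and 290.3 ± 18.4 at ZT12, and in DRF 307 ± 20.2 and 373 ± 31.9. Sgk1 and Mt2 changed by 1.76 ± 0.32, adjusted p = 0.00658 and 1.12 ± 0.14, adjusted p = 0.000481. For Fabp7 the change was -0.64 ± 0.18, adjusted p = 0.0619 and for Ugt8a -0.43 ± 0.20, adjusted p = 0.244, neither past the threshold, and their differences at ZT12 were -0.38 and -0.29. Per3 gave 0.42 ± 0.08, adjusted p = 0.00658, with a difference at ZT12 of 0.0046.

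**Figure D5:**
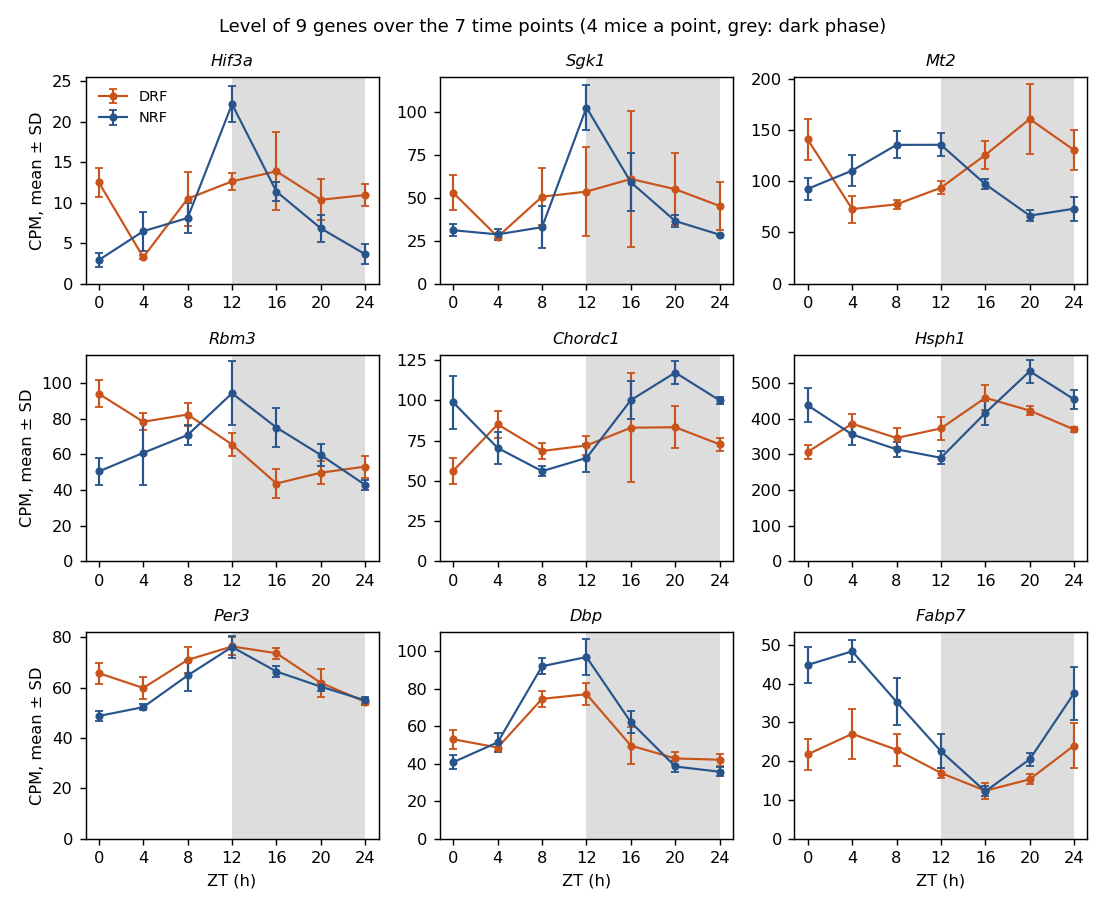
Mean CPM with SD (4 mice a point) of 9 genes at the 7 times for DRF (orange) and NRF (blue), with the dark phase in grey. Hif3a, Sgk1 and Mt2 are higher in DRF at ZT0 and ZT24 and higher in NRF at ZT12; Per3 is higher in DRF at ZT0 and level at ZT24, and the mean of Fabp7 is lower in DRF at each time except ZT16.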

How the data were processed

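RNA-seq of the anterior hypothalamus was taken from 8 mice at ZT0, 4 in each regimen, and 8 mice each at ZT24 and ZT12. The authors aligned and counted poly-A reads (HISAT2, Bowtie2 and RSEM on mm10, per the labels) and normalized them with edgeR. The deposited score for each gene and mouse behaves as log2(CPM + 1) divided by gene length and rescaled per mouse. Lengths and scales were solved from the table. Whole reads (within 0.05) were recovered for 15401 of 17564 genes, 99.667% of their values above 0; 1942 genes kept the annotated length without whole reads (6 of 116 named genes: Dbp, Nr1d1, Sult1a1, Trim17, Armcx5 and Rpl37, whose differences scale with that length), and 221 had no length. Genes with a deposited value of at least 1 in 80% of the 56 mice were tested with limma 3.58.1 (R 4.3.3, empirical Bayes with a trend) on log2(CPM + 1). Intervals are standard errors over mice. Nothing in the sources says whether counting used strand, so overlapping antisense genes are uncertain. Replicates were separate mice by their labels.

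Named genes were, by rule, the 15 largest rises and 15 largest falls among called genes with a mean log2(CPM + 1) of at least 2 and no overlap, up to 4 members of each list with the smallest p, all clock genes, and up to 5 genes for each difference between times. The comparison and lists were chosen with earlier results of these data known. Scripts were tested on simulated data. Alternatives were other filters, pseudocounts (0.25), scalings, the deposited scores, limma-voom on whole reads, robust variances, all 56 mice, a replicate block and each mouse left out. Promoter windows (32851, for 27025 genes) came from RefSeq on GRCm38.p6. Some genes are not reported here.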

Additional observations from a re-analysis of the deposited data

Results flagged for a closer look

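Within the 4 mice of a group, 10 of 220 pairs of a gene and a group held a mouse far from the other 3 by Dixon's test at the 95% level, where chance gives about 1 in 20. Per3 was at 71.9 CPM in DRF mouse 3 and 63.0 to 64.3 CPM in the other DRF mice. P4ha1 was at 35.8 CPM in DRF mouse 1, with the others at 42.8 to 44.0 CPM. Mt1 was at 158 CPM in NRF mouse 3 and at 197 to 206 CPM in the rest. Lss was at 48.1 CPM in DRF mouse 4 and 51.7 to 52.3 CPM in the others. Cox6a1 was at 105 CPM in DRF mouse 3 against 124 to 127 CPM. Igf1r was at 69.8 CPM in NRF mouse 1 against 66.7 to 67.2 CPM. Mthfd2 was at 14.4 CPM in DRF mouse 4, with the others at 11.5 CPM. Slco1c1 was at 42.2 CPM in NRF mouse 2 against 36.3 to 37.1 CPM. Clock was at 82.1 CPM in DRF mouse 1 against 94.1 to 95.9 CPM. Nr1d2 was at 125 CPM in NRF mouse 2, with the others at 118 CPM.

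The regimen difference itself differed between times, by the test of the difference, in the 6 results listed here, which were named by rule for their small p in these tests. They are not all that passed. The test of ZT0 against ZT12 called 561 genes, and other named genes were among them, such as Rbm3, Cirbp, Stip1, Hsph1, Sgk1 and Mt2. Per3 differed between ZT0 and ZT24 by 0.44. Between ZT0 and ZT12 the differences were 2.56 for Hif3a, 1.001 for Arrdc2, 0.94 for Etnppl, 0.63 for Sdc4 and 0.80 for Eva1a.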

How the results depend on the processing

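Of 110 named genes followed, 64 were called, all of these kept their direction under the alternatives run, and 28 stayed past the threshold in each. Over gene and setting pairs, 1738 kept direction and side of the threshold, 210 lost and 19 gained it, and 7 changed sign, all in uncalled genes: Rorb log2 difference at ZT0 (-0.00968 without DRF mouse 1, -0.00856 without NRF mouse 4), Rora (-0.056 without DRF mouse 3), Hlf (0.023 without DRF mouse 1, 0.036 without DRF mouse 4) and Npas2 (0.011 without DRF mouse 4, 0.093 without NRF mouse 2). Their highest or lowest values with a mouse left out on the other side of 0 were 0.067, 0.101, -0.111 and -0.0962. Genes called higher at ZT0 numbered 156 on the deposited values and 655 with library trends removed, and lower 80 and 596. Leaving out each mouse gave 61 to 537 higher and 39 to 563 lower. Genes called at ZT24 numbered 7 with no filter and 1 on the deposited values. The difference between ZT0 and ZT24 gave 0 genes on the deposited values, with quantile normalization and with library trends removed, and 0 to 1 with a mouse left out. That between ZT0 and ZT12 gave 1313 with library trends removed, 896 with all 56 mice, and 241 to 519 with a mouse left out. Clock repressors called were 3 with no filter, 2 on the deposited values and 2 to 4 with a mouse left out. Glucocorticoid targets were 5 on the deposited values and 6 to 10 with a mouse left out, heat-shock genes 2 and 5 to 11, endoplasmic reticulum chaperones 2 and 1 to 9, and cholesterol genes 0 and 0 to 3. Respiratory chain genes were 2 with no filter, 0 on the deposited values, 3 with quantile normalization, 1 with all 56 mice and 0 to 6 with a mouse left out. The causes were not tested.

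The replicate numbers did not pair the mice: same-numbered deviations correlated at -0.033, 0.070, -0.0066 and 0.115, and 1 of 4 DRF mice correlated best with its own number. A replicate block gave 128 higher and 110 lower at ZT0, 5 genes at ZT24, 0 for ZT0 against ZT24 and 279 for ZT0 against ZT12, with 3 clock repressors, 6 endoplasmic reticulum chaperones, 2 respiratory chain genes and 1 cholesterol gene. With 4 mice a group, an uncalled gene is not shown to be equal between regimens.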
